A study of Mus musculus with 4 samples.

Results

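The genes described here are 40 mouse genes of the interferon response and of antigen presentation, taken by gene symbol. A gene counted as measured where at least 1 probe set carried its symbol and no other, which held for 38 of the 40, with 71 probe sets, out of 18193 genes named in this way on the array. Isg15 and Ifi44 had no probe set under their symbol alone and were not analysed here. The probe sets were read in cells of the liver surface of C57BL/6 embryos at embryonic day 17.5, the mesothelium that covers the organ and the cells directly beneath it. These cells were dissected out surgically and used as primary cells, and the labels name no treatment or transgene. One genotype was wild type at Cdkn1c, which encodes the cell cycle inhibitor p57 (also named Kip2), and is written p57+/+. The other lacked p57 and is written p57-/-. The labels do not say which deletion allele was used. There were 2 samples of each genotype, and the titles place 1 of each in experiment 1 and 1 of each in experiment 2. These numbers serve as replicate numbers. Nothing states whether a sample was 1 embryo or a pool, so any p-value measures the spread between these 4 samples alone, and part of that spread may be technical.

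Interferons are secreted when sensors such as the products of Ifih1 and Ddx58 detect viral nucleic acid, and they signal through cell surface receptors and JAK kinases to STAT and IRF transcription factors. IRF9 directs a complex with STAT2 to the interferon-stimulated response element (ISRE), and the gamma-activated site (GAS) is the other main DNA element of the response. The induced genes include antiviral effectors and the machinery that cuts, transports and displays peptides on major histocompatibility complex (MHC) class I. MHC class II is displayed mainly by macrophages, dendritic cells and B cells, and the liver at this stage of development is still a site of blood formation.

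A probe set was tested where it was called Present, that is detected above its mismatch control, on at least 2 of the 4 arrays. This kept 22800 probe sets for 11656 genes, 48.4% to 50.01% of probe sets being Present on an array. Cdkn1c had signals of 10255 and 9866 in p57+/+ and of 7.79 and 7.28 in p57-/-, Absent on both p57-/- arrays, a level at least 760-fold lower (adjusted p 1.80e-08, limma with Benjamini-Hochberg adjustment). It was the only probe set past an adjusted p of 0.05, so 0.0% of the tested probe sets were called higher and 0.00439% lower in p57-/-, although 895 were higher and 854 lower at an unadjusted p under 0.05. The sex-linked genes Xist and Eif2s3y differed between arrays of 1 genotype. Xist had signals of 12199 and 86.7 in p57+/+ replicates 1 and 2 and of 7889 and 6412 in p57-/-. Y-linked Eif2s3y had 2.56 (Absent) and 1734 in p57+/+ and 966 and 904 in p57-/-, so both p57-/- samples gave both transcripts. All 11 tested mesothelial marker genes were Present, and markers of blood cells were present beside them, as given below.

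The promoters were searched for letters like those that STAT and IRF factors bind. Most members were listed as genes of the interferon response, so a higher share than over all genes is not an independent result. RefSeq promoter windows of the GRCm38.p6 assembly, 300 bases from 250 before to 50 after the gene start, were available for 34 of the 40 genes. The 6 without a window were Usp18, Mx1, Mx2, Oas2, Tap2 and Cd74. An ISRE-like motif, GAAANNGAAA on either strand, lay in 15 of the 34 windows (44.1%), beside 3.99% of 27025 genes with such a window. A GAS-like motif, TTCNNNGAA, which reads the same on both strands, lay in 10 of 34 (29.4%), beside 9.55% of all genes. Bst2, Eif2ak2, Ifitm3 and Oas1a held both, and the matches overlapped in Bst2 and Ifitm3. The stretches below, given 5′ to 3′ on the gene's own strand with the motif letters in capitals, are examples from several roles, picked from all matches with the values known. TTTCNNTTTC is the ISRE-like motif read from the other strand.

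Ifih1: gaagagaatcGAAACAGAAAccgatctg
Rsad2: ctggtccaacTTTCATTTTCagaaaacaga
Ifit1: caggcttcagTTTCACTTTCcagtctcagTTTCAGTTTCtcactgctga
Gbp2: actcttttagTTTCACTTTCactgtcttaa
Bst2: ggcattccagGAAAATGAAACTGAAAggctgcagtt
Ifitm2: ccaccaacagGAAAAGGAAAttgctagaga
Ifitm3: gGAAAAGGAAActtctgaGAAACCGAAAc
B2m: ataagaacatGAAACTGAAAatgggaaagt
Irf1 (GAS-like): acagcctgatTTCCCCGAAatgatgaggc
Psmb8 (GAS-like): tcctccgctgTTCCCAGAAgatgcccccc

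The Ifih1 stretch is chr2:62646206-62646233 on the minus strand and lies wholly after the gene start, as does that of Ifitm3, chr7:141010715-141010743, minus. The other stretches lie before the start. They are Rsad2 chr12:26456553-26456582 (minus), Ifit1 chr19:34640775-34640823 (plus), Gbp2 chr3:142620594-142620623 (plus), Bst2 chr8:71537577-71537612 (minus), Ifitm2 chr7:140955988-140956017 (minus), B2m chr2:122147538-122147567 (plus), Irf1 chr11:53769914-53769942 (plus) and Psmb8 chr17:34198088-34198116 (plus). The window of Ifitm1 held neither motif. A match is a description of letters and not of a bound site.

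Most of the genes were detected in these cells. Of the 38 measured genes, 34 were tested and 28 of these were Present on all 4 arrays through the probe set that stands for the gene, the one of highest mean log2 signal. Signals in p57+/+ ran from 36.9 for Mx1 to 19228 for B2m, with a median of 586 in the arbitrary units of the array, and are not ranked between genes because probe sets differ in how well they bind. The 4 genes not tested were effectors. Mx2, Oas3 and Oasl1 were Absent on all 4 arrays, and Oas1a was Present only in p57-/- replicate 2, with signals of 481 and 519 in p57+/+ and 416 and 428 in p57-/-.

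**Figure D1:**
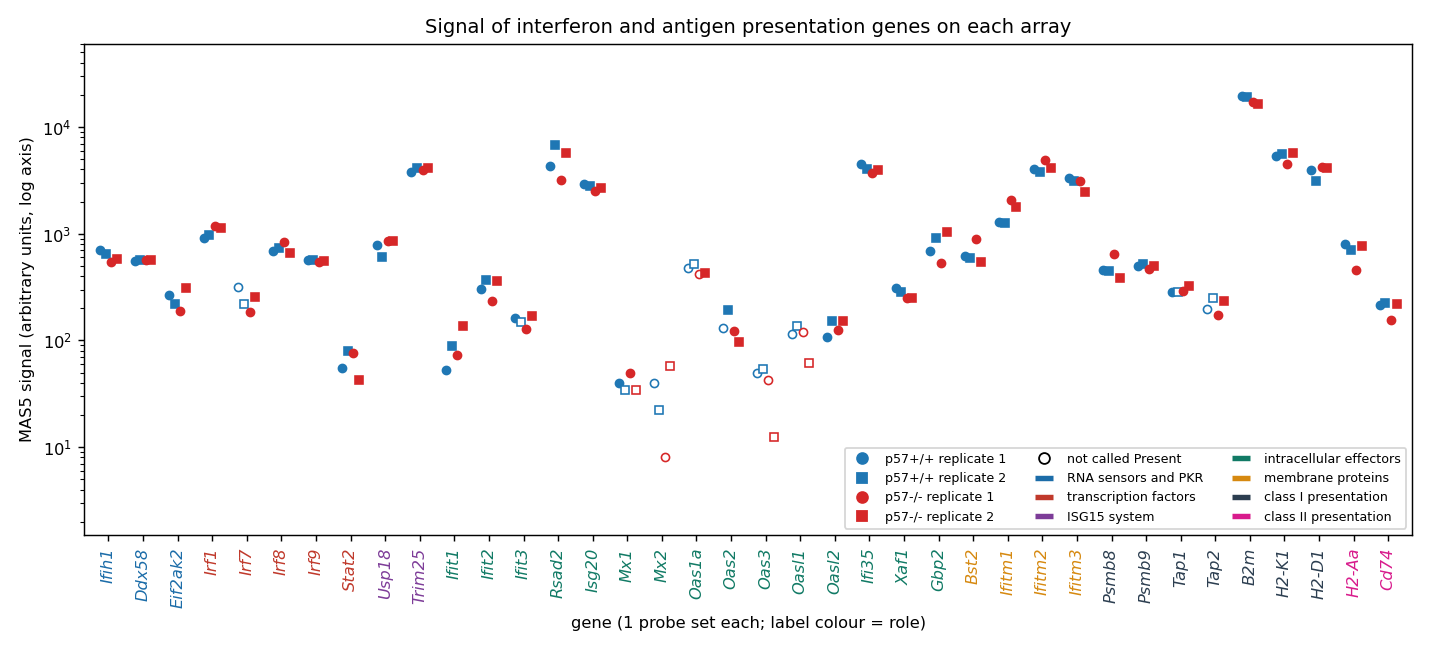
MAS5 signal (arbitrary units, log axis) of each measured gene on each of the 4 arrays, by the role of the gene, with blue for p57+/+, red for p57-/-, circles for replicate 1, squares for replicate 2, and open symbols where the call was not Present. For most genes the 4 symbols lie close together.

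None of the 58 tested member probe sets passed the test in either direction, and the lowest adjusted p was 0.519, for Ifitm1. A log2 change below is p57-/- minus p57+/+. Over the 34 tested genes the median log2 change was -0.07, beside 0.016 over all tested genes, and single genes ran from -0.55 for Oas2 to 0.59 for Ifitm1. The median was 0.02 without p57-/- replicate 1 and 0.01 without p57+/+ replicate 2, so its sign rests on single arrays. No gene differed by 2-fold or more in either experiment through the probe set that stands for it. Both p57-/- arrays lay above both p57+/+ arrays for 6 of 34 genes (17.6%), beside 21.7% of all tested genes, and below for 7 (20.6%), beside 19.0%. These shares are near those of all genes. At an unadjusted p under 0.05 there were 3 of 58 member probe sets (5.17%), 1 of Ifitm1 and 2 of H2-Aa, beside 7.67% of all tested probe sets.

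Through the probe set that stands for each gene, the data bounded most changes. The 95% interval of the log2 change, from limma and not adjusted for the number of genes, lay within a 2-fold change either way for 30 of the 34 genes and included 0 for 33, Ifitm1 being the exception. For the 20 genes with a p57+/+ signal of at least 500 the interval reached a median of 0.35 on the log2 scale to each side of the estimate, and all 20 intervals lay within 2-fold. For the 14 dimmer genes it was 0.61, and 10 intervals did. Other probe sets of some genes were bounded less well. For H2-Aa the interval was -1.09 to -0.17 on 1438858_x_at and -1.40 to -0.05 on 1452431_s_at. Both left out 0 and reached past 2-fold. For H2-K1 it was -0.26 to 1.37 on 1427746_x_at.

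**Figure D2:**
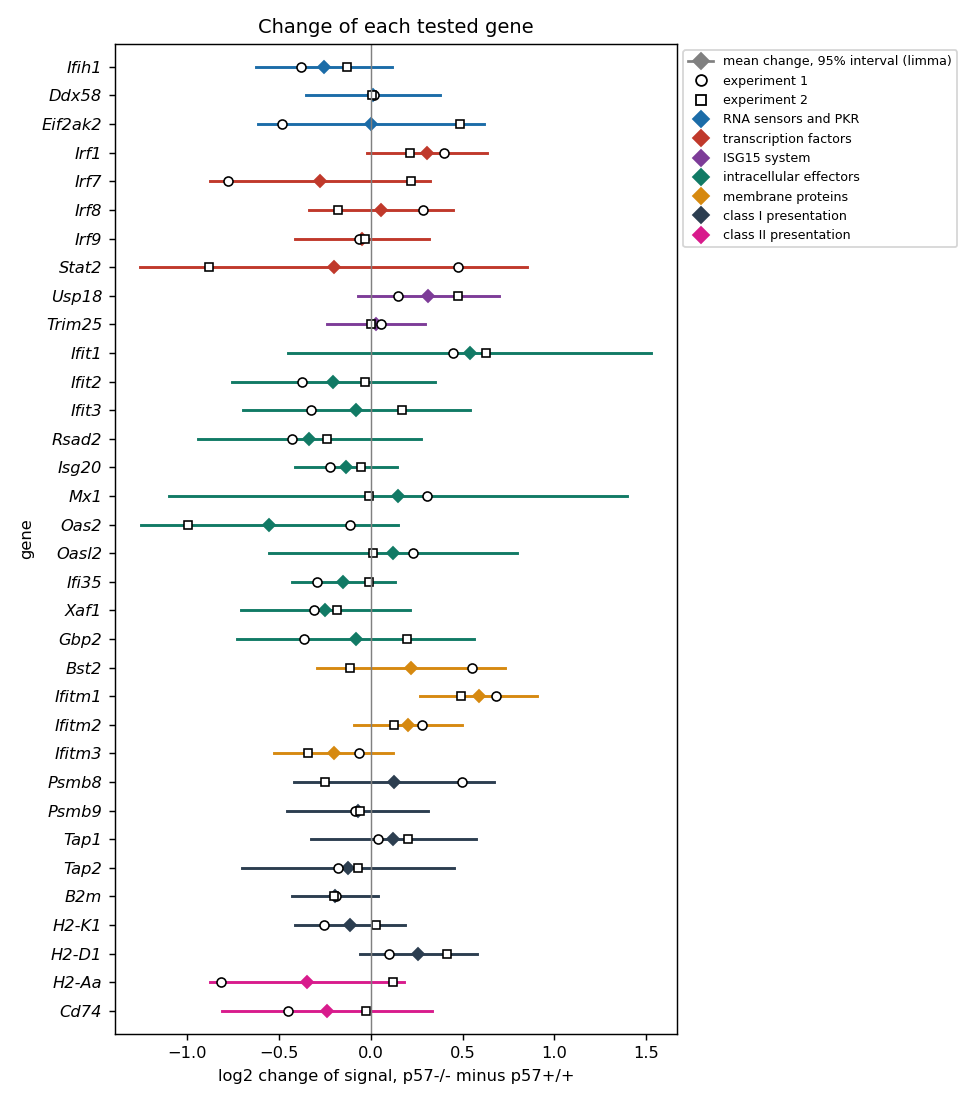
Log2 change (p57-/- minus p57+/+) of each tested member with its 95% interval from limma, and the changes within experiment 1 and experiment 2 as separate symbols. Each member is drawn through the probe set that stands for it. The estimates lie between -0.55 and 0.59, and only the interval of Ifitm1 leaves out 0.

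The experiments did not always point the same way. The change was higher in p57-/- in both experiments for 10 genes (29.4%), lower in both for 13 (38.2%) and opposite for 11 (32.4%), beside 29.6%, 26.7% and 43.7% of all tested genes. The p57+/+ arrays differed by a median of 0.13 log2 over the members and the p57-/- arrays by 0.33, beside 0.17 and 0.20 over all genes. The array of p57-/- replicate 1 was the lowest of the 4 arrays for 15 of the 34 genes (44.1%), beside 27.8% of all genes, and the highest for 9 (26.5%), beside 30.8%. Values that rest on that array are therefore given with both experiments beside them.

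**Figure D3:**
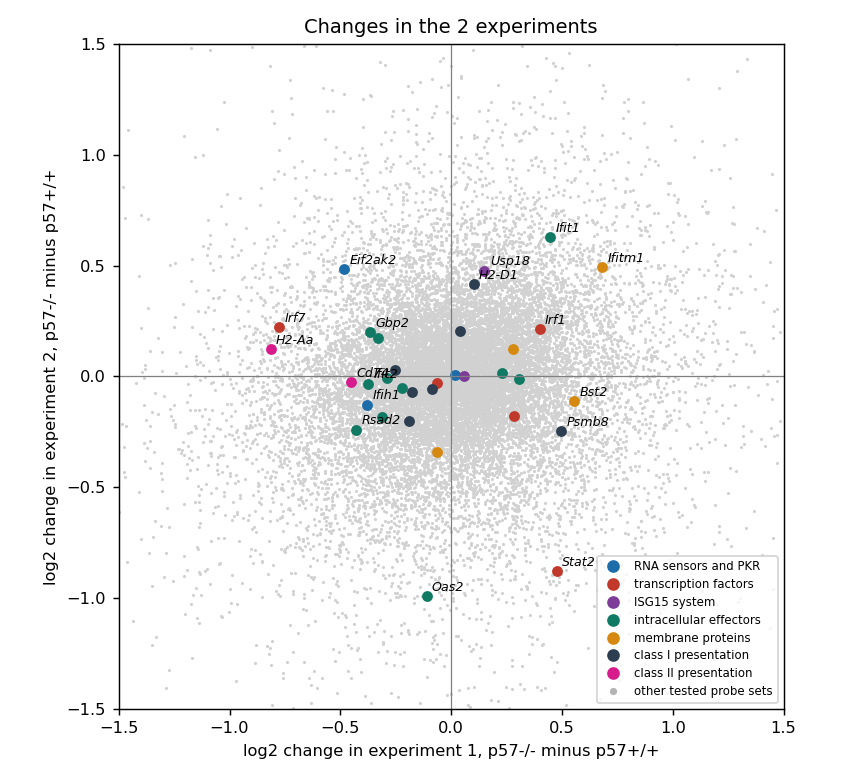
Log2 change in experiment 2 against that in experiment 1, with members in colour and other tested probe sets in grey, both axes drawn from -1.5 to 1.5. Members lie around the origin in all 4 quadrants, 11 of 34 in those where the experiments have opposite signs.

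Among the sensors, Ifih1, whose product MDA5 detects long double-stranded RNA, had signals of 710 and 639 in p57+/+ and of 546 and 585 in p57-/-. Its groups did not overlap, and the log2 change was -0.25 ± 0.16 (SE). Ddx58, which encodes the RNA sensor RIG-I, had 559 and 571 in p57+/+ and 565 and 573 in p57-/-. The arrays overlapped, and the log2 change of 0.01 had an interval from -0.35 to 0.38. The dimmer probe set of Ddx58, 1456890_at, was higher without overlap, by 0.11 in experiment 1 and 0.88 in experiment 2. Its log2 change was 0.49 ± 0.29 (SE) with an interval from -0.16 to 1.15 and an adjusted p of 0.707. The mean log2 change over both probe sets was 0.25, so the narrow interval holds for the brighter probe set alone. Eif2ak2 encodes PKR, a kinase that stops translation when it meets double-stranded RNA. It had 265 and 221 in p57+/+ against 190 and 309 in p57-/-, so the p57-/- arrays lay on either side of the p57+/+ pair.

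Among the transcription factors, Irf1, an activator of interferon genes and MHC class I, had signals of 905 and 972 in p57+/+ and of 1194 and 1125 in p57-/-. Both p57-/- arrays were higher, with a log2 change of 0.31 ± 0.15 (SE) and an adjusted p of 0.653. Irf9, the DNA-binding subunit of the STAT complex, had 573 and 564 in p57+/+ against 549 and 552 in p57-/-, giving a log2 change of -0.05. Irf7, the amplifier of type I interferon production, was Absent on both p57+/+ arrays at 316 and 221 and had 185 and 257 in p57-/-. Irf8, a factor of the macrophage and dendritic lineages, had 685 and 742 in p57+/+ and 835 and 656 in p57-/-, with overlap. Its dimmer probe set 1448452_at had 273 and 240 (Absent) in p57+/+ and 274 and 332 in p57-/-. These did not overlap, with a log2 change of 0.24 ± 0.22 (SE). Stat2, which carries the activation domain of the complex with IRF9, was dim at 54.9 and 78.8 in p57+/+ against 76.4 and 42.8 in p57-/-.

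Usp18 encodes the protease that takes ISG15 off its targets and damps receptor signalling. Its signals were 778 and 609 in p57+/+ and 864 and 848 in p57-/-, without overlap, with a log2 change of 0.31 ± 0.17 (SE) and an adjusted p of 0.687. Trim25, the ubiquitin ligase that activates RIG-I, had 3821 and 4155 in p57+/+ and 3977 and 4158 in p57-/-, giving a log2 change of 0.03 ± 0.12 (SE). Its other tested probe sets went both ways, at -0.10 on 1425974_a_at and 0.38 on the dimmer 1426415_a_at, where the groups did not overlap.

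Of the 16 antiviral effectors, 11 were tested. None had both p57-/- arrays above both p57+/+ arrays, and 4 (36.4%) had both below, namely Isg20, Oas2, Ifi35 and Xaf1, beside 21.7% and 19.0% of all tested genes. The median log2 change was -0.14, and -0.29 and -0.01 within experiments 1 and 2. Oas2, whose product makes the messenger that activates RNase L, had the lowest log2 change of all members over the 4 arrays. Its signals were 132 (Marginal) and 192 in p57+/+ and 122 and 96.4 in p57-/-. The log2 change was -0.55 with an interval from -1.25 to 0.15 and an adjusted p of 0.699, and nearly all of it came from experiment 2, at -0.99. It ran from -0.82 to -0.28 when 1 array was left out, and Irf7 was lower at -0.54 without p57+/+ replicate 2, as was Rsad2 at -0.76 without p57-/- replicate 2. Ifi35, an interferon-induced leucine zipper protein, had 4546 and 4021 in p57+/+ and 3717 and 3997 in p57-/-. All 3 of its probe sets were lower without overlap, by log2 changes of -0.26 to -0.15. Isg20, an RNA exonuclease, had 2919 and 2797 in p57+/+ and 2506 and 2696 in p57-/-, giving a log2 change of -0.14 ± 0.12 (SE). Xaf1, a promoter of cell death, had 311 and 284 in p57+/+ and 251 on each p57-/- array, giving a log2 change of -0.25 ± 0.21 (SE).

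Rsad2 encodes viperin, which makes a chain-terminating nucleotide. It had 4308 and 6792 in p57+/+ and 3204 and 5750 in p57-/-. Replicate 2 was above replicate 1 in both genotypes, so the groups overlapped, and all 3 probe sets had log2 changes between -0.33 and -0.25 with p57-/- replicate 1 the lowest array. The IFIT proteins bind foreign RNA caps. Ifit1 had 53.3 and 88.7 in p57+/+ and 72.7 and 137 in p57-/-, giving a log2 change of 0.54 whose interval, -0.45 to 1.53, was among the widest. It was 0.080 to 0.997 when 1 array was left out. Ifit2 had 306 and 369 in p57+/+ and 236 and 360 in p57-/-, and Ifit3 had 161 and 149 (Absent) in p57+/+ and 128 and 168 in p57-/-, both with overlap. Gbp2, a GTPase that attacks the vacuoles of intracellular microbes, had 684 and 913 in p57+/+ and 532 and 1048 in p57-/-. Its p57-/- arrays lay outside the p57+/+ pair on both sides. Mx1, a GTPase whose gene is disrupted in C57BL/6 and most other laboratory strains, had 39.7 and 34.3 (Absent) in p57+/+ and 49.2 and 34.1 (Marginal) in p57-/-. Oasl2, of the same family as Oas2, had 108 and 151 in p57+/+ and 126 and 152 in p57-/-.

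Ifitm1, Ifitm2 and Ifitm3 encode small membrane proteins that block the entry of enveloped viruses. Ifitm1 had the highest log2 change of all members. Its signals were 1283 and 1253 in p57+/+ and 2060 and 1764 in p57-/-, means of 1268 ± 21.0 and 1912 ± 209 (SD, n = 2 arrays each). Both p57-/- arrays were clearly above both p57+/+ arrays, which is a 1.503-fold difference with an interval from 1.21 to 1.87 and a log2 change of 0.59 ± 0.14 (SE). It ranked 92 of the 22800 probe sets by p and did not pass the test, with an adjusted p of 0.519. Ifitm2 had 4063 and 3787 in p57+/+ and 4935 and 4130 in p57-/-, without overlap and with a log2 change of 0.20 ± 0.13 (SE). Ifitm3 lay the other way at 3295 and 3129 in p57+/+ against 3152 and 2473 in p57-/-, with overlap and a log2 change of -0.20 ± 0.15 (SE). These 3 genes neighbour each other on chromosome 7, the chromosome of Cdkn1c, with 72 to 74 protein-coding genes of the RefSeq table between them and Cdkn1c, and Irf7 lies nearer, with 58 between. Irf7 is given above, and the 4 genes did not share a direction. Bst2, or tetherin, which holds budding virus at the cell surface, had 614 and 594 in p57+/+ and 901 and 549 in p57-/-. Its p57-/- arrays lay on either side of the p57+/+ pair.

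In the MHC class I machinery the log2 changes were small, with a median of -0.07. B2m, the invariant chain of all class I molecules, had signals of 19502 and 18957 in p57+/+ and of 17119 and 16496 in p57-/-. The groups did not overlap, the log2 change was -0.19 ± 0.10 (SE) with an interval from -0.43 to 0.04, and the adjusted p was 0.679, while its other probe set overlapped at -0.05. The heavy chain gene H2-D1 had 3971 and 3096 in p57+/+ and 4262 and 4131 in p57-/-, giving a log2 change of 0.26 ± 0.14 (SE) at an adjusted p of 0.688. Of its 6 tested probe sets 4 were higher and 2 lower, from -0.48 to 0.27.

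H2-K1, the other classical heavy chain of this strain, had 5399 and 5541 in p57+/+ and 4526 and 5648 in p57-/-, with overlap and a log2 change of -0.11. Its probe set 1427746_x_at had 1025 and 846 in p57+/+ and 834 and 2242 in p57-/-, so that only p57-/- replicate 2 stood high, with a log2 change of 0.55 ± 0.36 (SE). With p57-/- replicate 1 left out, this probe set passed the test at a log2 change of 1.27 (adjusted p 0.0296). The same array was highest on 1450534_x_at, at 100.6 and 58.9 (Absent) in p57+/+ against 76.3 (Absent) and 140 in p57-/-. Class I genes are near copies of each other, and the ending x_at marks probe sets whose probes may match other transcripts. These signals therefore cannot be assigned to H2-K1 alone. The probe sets that stand for H2-D1, H2-Aa and Gbp2 carry the same ending, so the same limit holds for their values.

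Peptides for class I are cut by the immunoproteasome and moved into the endoplasmic reticulum by the TAP transporter. Psmb8, an immunoproteasome subunit, had 453 and 452 in p57+/+ and 639 and 381 in p57-/-, on either side of the p57+/+ pair. Psmb9, another, had 494 and 521 in p57+/+ and 465 and 501 in p57-/-, with a log2 change of -0.07. Tap1 had 286 and 284 (Marginal) in p57+/+ and 294 and 327 in p57-/-, without overlap and with a log2 change of 0.12 ± 0.20 (SE). Its other tested probe set, 1420274_at, was dim at 9.84 and 20.7 in p57+/+, Absent on both arrays. It had 26.3 and 27.6 in p57-/-, at least 1.68-fold higher, and was tested only because both p57-/- arrays were Present. From the measured signals the log2 change was 0.92 ± 0.87 (SE), with an interval from -1.04 to 2.87. Tap2 had 196 (Marginal) and 247 (Absent) in p57+/+ and 174 and 236 in p57-/-.

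Both class II members were lower in experiment 1. H2-Aa, the class II alpha chain, had signals of 807 and 705 in p57+/+ and of 459 and 767 in p57-/-. Only p57-/- replicate 1 was low, and the log2 change was -0.81 in experiment 1 and 0.12 in experiment 2. The dimmer probe sets separated the groups. 1438858_x_at had 335 and 324 in p57+/+ and 208 and 217 in p57-/-, giving a log2 change of -0.63 ± 0.21 (SE) at an adjusted p of 0.558. 1452431_s_at had 180 and 171 (Absent) in p57+/+ and 86.5 and 130 in p57-/-. Its log2 change was -0.73 ± 0.30 (SE) at an adjusted p of 0.631. The fourth probe set had a log2 change of 0.23. Cd74, the invariant chain that guides class II molecules, had 213 and 222 in p57+/+ and 156 and 219 in p57-/-, again with only p57-/- replicate 1 low.

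**Figure D4:**
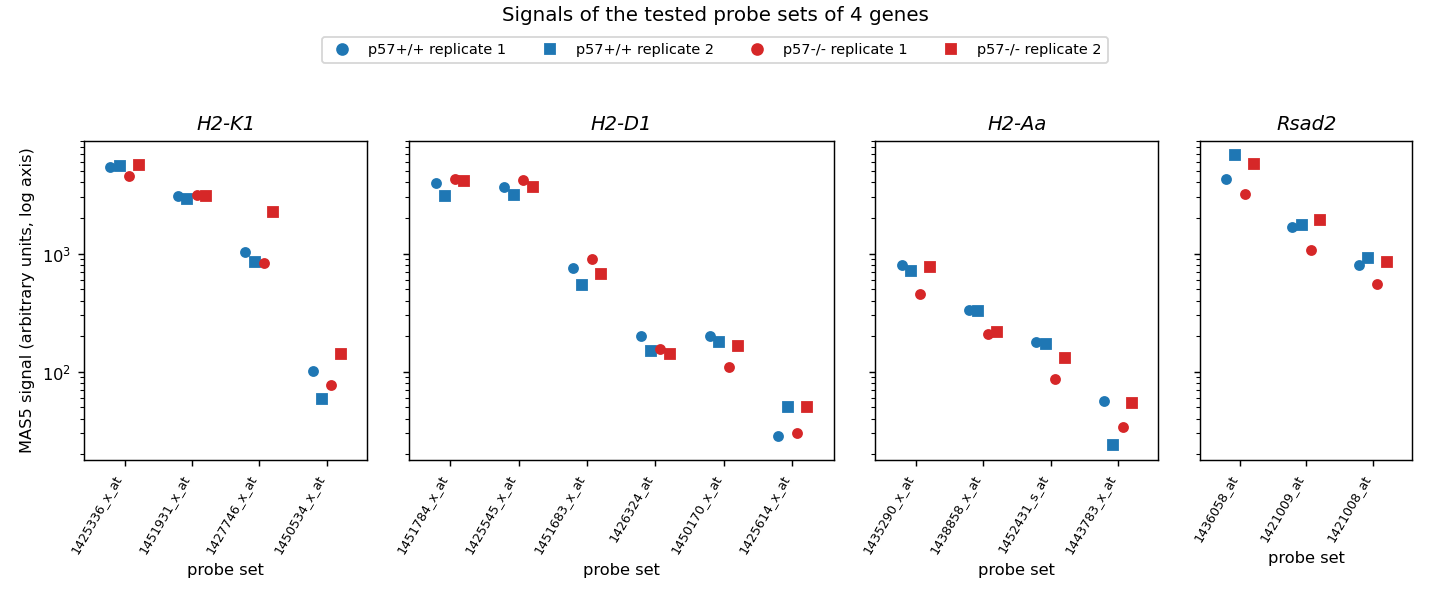
MAS5 signal (arbitrary units, log axis) of every tested probe set of H2-K1, H2-D1, H2-Aa and Rsad2 on the 4 arrays, blue for p57+/+, red for p57-/-, circles for replicate 1 and squares for replicate 2. For 1427746_x_at of H2-K1 p57-/- replicate 2 stands at 2242 above the other arrays, and for Rsad2 p57-/- replicate 1 is lowest on all 3 probe sets.

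B lymphoid markers were lower on p57-/- replicate 1, as were H2-Aa and Cd74 through the probe sets that stand for them. The H2-Aa probe sets 1438858_x_at and 1452431_s_at were low on p57-/- replicate 2 as well, at 217 and 130. The class II gene H2-Ab1, given below, was highest on p57-/- replicate 1, at 480. In a bulk sample fewer cells of a type and less RNA per cell cannot be told apart. For 12 B lymphoid markers, 7 of which were tested, the signal summed over the tested markers, as for each list here, was 4601 and 4476 in p57+/+ and 2746 and 4586 in p57-/-, with a median log2 change of -0.78 in experiment 1 and 0.05 in experiment 2. Vpreb1, part of the surrogate light chain of B cell precursors, had 1360 and 1668 in p57+/+ and 730 and 1643 in p57-/-, while Pax5 and Dntt were Absent on all arrays. For 16 macrophage markers, all tested, the sums were 56767 and 54141 in p57+/+ and 66303 and 54891 in p57-/-, with medians of 0.25 and -0.17 in experiments 1 and 2. For 8 conventional dendritic markers, 3 of them tested, the sums were 603 and 717 in p57+/+ and 567 and 667 in p57-/-, with Xcr1, Cd209a and Ccr7 Absent on all arrays. Of 9 T and NK cell markers 2 were tested, with sums of 955 and 683 in p57+/+ and 617 and 547 in p57-/-, and Cd3e, Cd3g, Cd2, Ncr1 and Il2rb were Absent on all arrays. Of 6 plasmacytoid dendritic markers 3 were tested, and Siglech and Ccr9 were Absent on all arrays. Of 11 erythroid markers 9 were tested, all lower in both experiments and 8 without overlap (88.9%, against 19.0% of all genes). Their sums were 125020 and 132640 in p57+/+ against 83417 and 114310 in p57-/-. Of 10 granulocyte markers, all tested, 6 were higher (60%, against 21.7% of all genes) and 0 lower (against 19.0%) without overlap. Their sums were 211360 and 210960 in p57+/+ against 227490 and 233890 in p57-/-. In experiment 1 alone the summed signal in p57-/- was 1.62 times that in p57+/+ for megakaryocyte, 1.31 for endothelial and 1.29 for mesenchymal and stellate markers, with 0.908, 0.874 and 1.03 in experiment 2. The part of these cells in the class II, effector and other values was not tested.

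Where 1 gene had several tested probe sets, as 12 members did, the probe sets pointed the same way in 7 and both ways in 5, namely Eif2ak2, H2-Aa, H2-D1, H2-K1 and Trim25. The 12 tested members with an ISRE-like match had a median log2 change of -0.08, with 1 higher and 2 lower without overlap, and the 17 with a window but no ISRE-like match had -0.05, with 4 and 4. For the GAS-like motif the order was the other way, with 0.0011 over the 9 tested members that held it (1 higher, 2 lower) and -0.07 over the 20 that did not (4 and 4). Over all tested genes 21.7% were higher and 19.0% lower without overlap.

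A further 114 genes of the pathway were set beside the members, of which 98 had a probe set and 83 were tested. None passed the test, and the lowest adjusted p was 0.549. The median log2 change over the 83 was -0.05, and 12 were higher (14.5%) and 21 lower (25.3%) without overlap, beside 21.7% and 19.0% of all tested genes. Of 22 ligand, receptor and signalling genes 15 were tested, 8 of them higher (53.3%, against 21.7% of all genes) and 2 lower (13.3%, against 19.0%) without overlap, with a median of 0.20 (0.28 in experiment 1 and 0.08 in experiment 2). Ifngr1, the ligand-binding chain of the interferon gamma receptor, had the highest change of these at 1519 and 1368 in p57+/+ against 2141 and 1833 in p57-/-, giving a log2 change of 0.46 ± 0.14 (SE) at an adjusted p of 0.549. Its partner chain Ifngr2, chosen after its values were seen, had 468 and 484 in p57+/+ and 635 and 603 in p57-/-, giving a log2 change of 0.38 ± 0.17 (SE) at an adjusted p of 0.642. Tyk2, a kinase of the type I receptor, had the lowest change at -0.20. The interferon genes Ifnb1, Ifna4 and Ifng were Absent on all 4 arrays, as was the lambda receptor chain Ifnlr1.

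Of 41 other interferon-stimulated genes 38 were tested, 1 of them higher (2.63%, against 21.7% of all genes) and 13 lower (34.2%, against 19.0%) without overlap. The log2 change was below 0 in experiment 1 for 84.2% of the 38, beside 46.3% of all tested genes, with medians of -0.22 and -0.07 in experiments 1 and 2. Gbp6, a guanylate-binding GTPase, had 269 and 290 in p57+/+ and 167 and 170 in p57-/-, giving a log2 change of -0.73 ± 0.22 (SE) at an adjusted p of 0.549, the lowest of these genes. Gbp3 of the same family, chosen after its values were seen, had 148 and 177 in p57+/+ and 87.2 and 114 in p57-/-. Ifi47, a GTPase induced by interferon gamma, was the 1 gene higher without overlap, at 805 and 806 in p57+/+ against 1124 and 1004 in p57-/-, giving a log2 change of 0.40 ± 0.15 (SE) at an adjusted p of 0.597. Igtp, another such GTPase, had a log2 change of 0.03. Iigp1 of the same GTPase family, chosen after its values were seen, had 1351 and 2136 in p57+/+ against 3209 and 1482 in p57-/-, which is 2.38-fold higher in experiment 1 and a log2 change of -0.53 in experiment 2.

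Of 19 other sensors and adaptors 10 were tested, 1 higher (10%, against 21.7% of all genes) and 4 lower (40%, against 19.0%) without overlap. The DNA sensor Aim2 had 60.04 and 52.3 in p57+/+ and was Absent on both p57-/- arrays at 23.8 and 23.2, at least 2.38-fold lower (adjusted p 0.642). Ticam1, the adaptor of Toll-like receptor 3, had the highest change at 0.46. Of 16 other class I genes 10 were tested, from -0.31 for the nonclassical H2-M3 to 0.16 for the immunoproteasome subunit Psmb10. Of 13 other class II genes 7 were tested, from -0.34 for H2-Ob to 0.20 for the beta chain H2-Ab1. This partner of H2-Aa had 347 (Absent) and 394 in p57+/+ against 480 and 378 (Marginal) in p57-/-, so p57-/- replicate 1, where H2-Aa was low, was its highest array (0.47 in experiment 1, -0.06 in experiment 2). H2-Eb1, H2-DMb2, H2-Oa and the class II activator Ciita were Absent on all 4 arrays. The protease Ctss, which trims the invariant chain, had 5524 and 4460 in p57+/+ and 6887 and 4708 in p57-/-. The constitutive proteasome subunits Psmb5, Psmb6 and Psmb7, which the immunosubunits replace, had log2 changes of -0.07, 0.20 and -0.07.

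**Figure D5:**
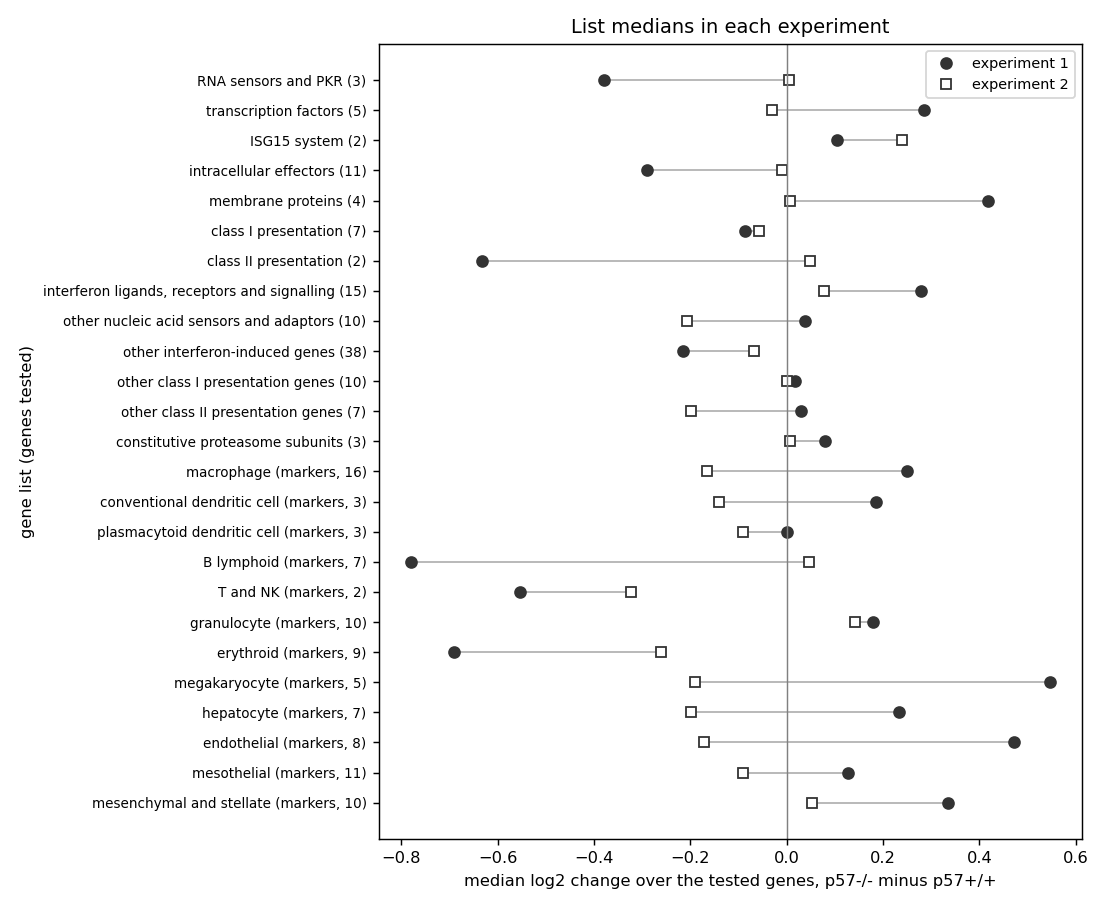
Median log2 change (p57-/- minus p57+/+) of each list in experiments 1 and 2, for the members by role, the other pathway genes and the cell type markers, with the number of tested genes after each name. B lymphoid markers lie at -0.78 in experiment 1 and 0.05 in experiment 2, and class II members at -0.63 and 0.05.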

How the data were processed

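For each sample 1 Affymetrix array was hybridised, holding 45101 probe sets and among them 64 controls, with cRNA from 250 ng of total RNA, per the labels' protocols. The authors deposited MAS5 signal intensities on a linear scale, the method as named in the submitters' processing notes, and detection p-values with Present, Marginal or Absent calls, per the file headers. The version of MAS5 is not given in the sources used here. On every array the trimmed mean was 500.003, so changes are relative to each array's average. A probe set Absent on both arrays of a genotype has a bound for a fold: the brighter genotype's mean log2 signal less the dim genotype's, in which each dim array counted at its lowest Present signal or at the measured signal if that was higher.

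Signals were log2 transformed with no pseudocount. Probe sets Present on at least 2 of the 4 arrays went into lmFit and eBayes (with a variance trend) of limma 3.58.1 under R 4.3.3, two-sided, with no block and Benjamini-Hochberg adjustment over 22800 probe sets, with a threshold of 0.05. The script was tested on simulated data. Symbols came from the platform annotation: 34945 probe sets had 1, 932 several and 9160 none. The number of arrays limits the precision.

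The members and lists were chosen with earlier results of these data known. All members were named, each through its tested probe set of highest mean log2 signal, or of all its probe sets where none was tested, and members whose arrays separated by genotype were described in full. From each list of other pathway genes the highest, lowest and brightest were taken. Alternatives covered the normalization, a pseudocount, the Present filter, the probe set rule, the replicate block and leaving out each array.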

Additional observations from a re-analysis of the deposited data

How the results depend on the processing

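The 2 arrays a genotype limit the precision, and intervals were wider for dim genes. Of 436 recomputed changes of the 34 tested members, 402 had a test and 0 of these passed the threshold, and 28 of the 436 had the other sign, in 17 members. With quantile normalization the log2 change was -0.0045 for Ddx58 and -0.0088 for Eif2ak2, and with the mean of all tested probe sets it was -0.020 for Eif2ak2 and 0.23 for H2-K1. The mean takes in the other tested probe sets, at 0.06, 0.55 and 0.43 for H2-K1 and at -0.16 and 0.09 for Eif2ak2. The cause of the sign changes with quantile normalization was not tested.

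Leaving out 1 array at a time, with the lone sample of a genotype assumed to vary like the other pair, gave changes that reversed for some members, and these ranged from -0.14 to 0.58 for Bst2, -0.48 to 0.0055 for Cd74, -0.0047 to 0.026 for Ddx58, -0.35 to 0.35 for Eif2ak2, -0.57 to 0.41 for Gbp2, -0.72 to 0.025 for H2-Aa and -0.27 to 0.046 for H2-K1. The range was -0.51 to 0.10 for Ifit2, -0.27 to 0.12 for Ifit3, -0.12 to 0.23 for Irf8, -0.12 to 0.41 for Mx1, -0.12 to 0.36 for Oasl2 and -0.25 to 0.50 for Psmb8. It was -0.76 to 0.088 for Rsad2, -0.62 to 0.22 for Stat2, -0.34 to 0.098 for Tap2 and -0.031 to 0.090 for Trim25. Among members that kept their sign, Usp18 ran from 0.14 to 0.49, H2-D1 from 0.080 to 0.44, Ifitm2 from 0.074 to 0.33, Ifitm3 from -0.38 to -0.027, Ifit1 from 0.080 to 0.997 and Oas2 from -0.82 to -0.28. The median over members ran from -0.088 to 0.023. Members higher without overlap numbered 6 to 14 and lower 10 to 18, fewer arrays having to separate. The shares over all genes are not given for these settings, so these counts describe nothing particular to the members. Member probe sets called numbered 0 to 1, the latter without p57-/- replicate 1.

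Over all probe sets the number called was 5 without p57+/+ replicate 1, 9 without p57+/+ replicate 2, 12 without p57-/- replicate 1 and 221 without p57-/- replicate 2. It was 0 where Present calls were required on all 4 arrays, since Cdkn1c was then not tested. With the experiment number as a replicate block it was 30, 10 higher and 20 lower, with 0 members among them and an adjusted p of 0.148 for Ifitm1. Deviations of arrays with the same number correlated at 0.0046 over 22800 probe sets. With 2 arrays a genotype this cannot show whether samples of the same number were handled together, and the labels do not say. For Ifitm1 the log2 change without 1 array ran from 0.48 to 0.70.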
